A study of Drosophila melanogaster with 6 samples.

Results

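vri and Pdp1 are the bZIP genes of the second feedback loop of the Drosophila circadian clock, and their RNA was followed in S2 cells, a haemocyte-like line from late embryos, after transfection with increasing amounts of pAc-Clk, a plasmid for expressing Clk. They were taken as all probe sets whose gene symbol in the platform annotation is vri or Pdp1, which gave 1 probe set each (1639273_s_at for vri and 1627436_s_at for Pdp1). These are 2 of the 11982 genes that a probe set with a single symbol represents on the Affymetrix array, and both passed the signal filter. The 6 arrays measured total RNA collected 48 h after transfection, with 2 arrays of a control transfection, described in the series record as empty vector, 2 arrays at 10 ng of pAc-Clk, 1 array at 30 ng and 1 array at 100 ng. The labels give neither the promoter of the plasmid nor the share of cells that took it up, and nothing in them says that replicates were separate cultures. In such bulk RNA, more cells expressing a gene and more of its RNA per cell cannot be told apart.

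Clk and Cyc form a bHLH-PAS heterodimer that binds E-boxes and drives transcription of per, tim, vri and Pdp1. Vri and Pdp1 proteins act back on the Clk gene through shared binding sites: Vri represses Clk, and Pdp1, a PAR-domain bZIP protein, can activate it. Both genes also work outside the clock, vri in embryonic development and cell growth, and Pdp1 in muscle, where its product helps to activate Tropomyosin. RefSeq lists 5 transcripts of vri and 13 of Pdp1, and the files do not say which of them each probe set reads.

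Values are log2 signals, read as the natural log of the deposited intensity, since no source used here states in which base the intensities were written. Taking the log2 of the intensities at face value would make each change 1.44 times larger. Background was judged by the Tag control probe sets, designed to match no fly transcript, whose highest signal was 2.95 to 3.56 on an array. All 8 haemocyte markers examined read above them on each of the 6 arrays (10.53 to 14.67). The glial gene repo, the fat body gene Yp1 and the muscle gene Act88F read below them on all 6. The neuronal genes elav (5.89 to 7.53) and brp (3.99 to 4.33) and the fat body gene Fbp1 (4.25 to 4.76) read above them on all 6. The neuronal nSyb, the photoreceptor gene gl and the fat body gene Lsp2 did so on some arrays. The 30 and 100 ng arrays stood apart from the others in the control transcripts. The mean 5′ minus 3′ signal of actin, eIF-4a and GAPDH was -0.75 on each control array, -1.25 and -0.64 on the 10 ng arrays, -9.40 on the 30 ng array and -8.25 on the 100 ng array. Dose and this low 5′ signal cannot be told apart for contrasts of these single arrays with control or 10 ng. Where the vri and Pdp1 probe sets lie along their transcripts is not given in the files, so the part of the low 5′ signal in their changes was not tested.

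vri signal was higher at each larger amount of plasmid. The control arrays read 6.72 and 7.32, the 10 ng arrays 8.42 and 8.20, the 30 ng array 9.57 and the 100 ng array 11.15. The groups did not overlap, and the lowest reading, on control replicate 1, was still 3.76 above the highest Tag signal of its array. Such an order, with both 10 ng arrays above both controls, 30 ng above these and 100 ng highest, was found for 93 of 8446 probe sets tested (1.1%). All 4 Clk arrays lay above both controls for 168 probe sets (1.99%), vri among them and Pdp1 not; the opposite, all 4 below both, held for 676 (8%).

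Pdp1 signal stood out on 1 array. The control arrays read 6.44 and 7.34, the 10 ng arrays 6.73 and 7.39, the 30 ng array 7.13 and the 100 ng array 9.59. The 10 ng and 30 ng readings overlapped the controls, and among the 6 arrays the 100 ng array alone was clear of the others. A rise there was not rare, since 33.6% of all probe sets tested were called higher than control at 100 ng (limma). The share of probe sets with the 100 ng array alone clear was not counted. The control arrays differed by more for Pdp1 (SD 0.64, n = 2) than for vri (SD 0.42, n = 2), and for both genes control replicate 2 was the higher one. All Pdp1 readings were well clear of the Tag controls, by 3.48 or more.

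**Figure D1:**
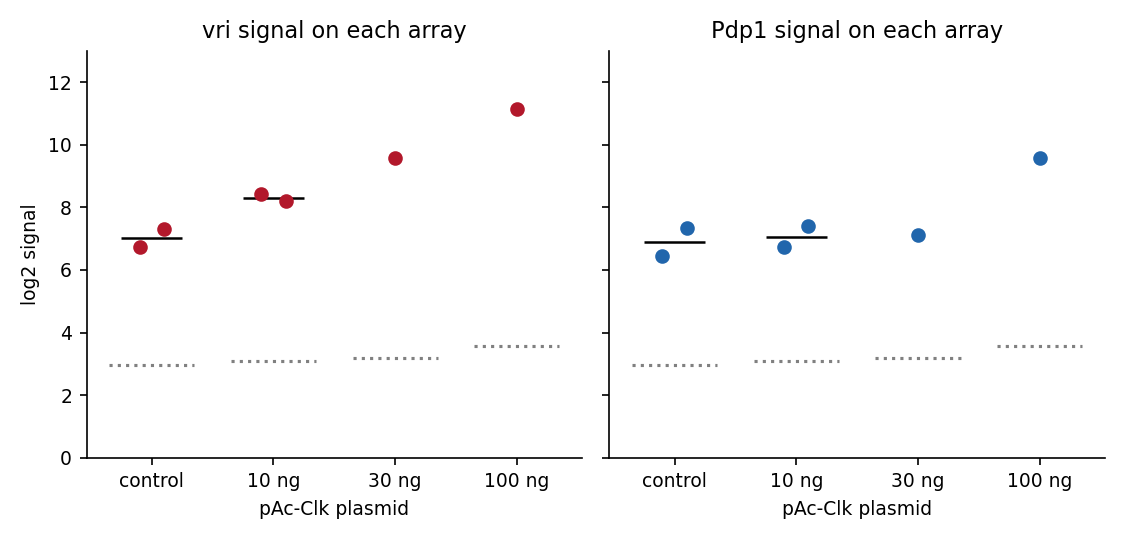
log2 signal of vri (left) and Pdp1 (right) on each of the 6 arrays, by amount of pAc-Clk. Points are arrays, black bars are means of the groups with 2 arrays, and dotted lines mark the highest Tag control signal (mean of the group's arrays); vri is higher at every step, whereas Pdp1 is clear of the controls at 100 ng (9.59).

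At 10 ng, the dose with replicates, neither gene passed the test. vri averaged 8.31 ± 0.16 at 10 ng and 7.02 ± 0.42 in controls (SD, n = 2 each). The change on the log2 scale was 1.29 (SE 0.23, 2.45-fold, 95% interval 0.78 to 1.80), with an adjusted p of 0.175 by limma with Benjamini-Hochberg adjustment over all 8446 probe sets. Of these probe sets 0.0947% were called higher at this dose and 0 were called lower (limma; at an unadjusted p under 0.05, 137 or 1.62% were lower and 37 or 0.438% higher). Both 10 ng arrays were above both controls for vri, as for 313 probe sets (3.71%), and its change was the 7th largest of 6612 genes. The call depended on the settings: vri passed in 5 of 17 (limma adjusted p 1.37e-08 to 0.979 over all 17), among them without control replicate 2 (1.59). Of the settings in which it passed, all but median centring had infinite prior degrees of freedom. There a gene's own spread counts little or not at all.

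Pdp1 averaged 7.06 ± 0.47 at 10 ng and 6.89 ± 0.64 in controls (SD, n = 2 each). Its log2 change was 0.17 (SE 0.32, 95% interval -0.56 to 0.89, limma adjusted p = 1.00), smaller than the spread of the controls. By size this change ranked 281st of 6612 genes. It passed in 0 of 17 settings, and its sign turned without control replicate 1 (-0.28) or without 10 ng replicate 2 (-0.16).

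At 30 ng vri rose, and Pdp1 did not pass. vri read 9.57 at 30 ng, against 7.02 ± 0.42 in controls (SD, n = 2), a log2 change of 2.55 (SE 0.28, 5.86-fold, limma adjusted p = 0.000228), on the assumption that the single array varies like the replicated groups. Of all probe sets tested 17.3% were called at 30 ng, 5.73% higher and 11.6% lower, and vri ranked 5th among the 6612 genes. Pdp1 read 7.13 at 30 ng, between the control readings, and its change was 0.24 (SE 0.40, 95% interval -0.65 to 1.13, limma adjusted p = 0.700). Its change ranked 2768th of 6612 genes. vri passed in 13 of 13 settings (2.25 to 3.68), and Pdp1 in 0 of 13, with its sign turned without control replicate 1 (-0.21).

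At 100 ng both genes rose. vri read 11.15 at 100 ng, against 7.02 ± 0.42 in controls (SD, n = 2), a log2 change of 4.13 (SE 0.28, 17.5-fold, limma adjusted p = 8.79e-07). Pdp1 read 9.59 at 100 ng, against 6.89 ± 0.64 in controls (SD, n = 2), a log2 change of 2.70 (SE 0.40, 6.50-fold, limma adjusted p = 0.000185). A call at this dose carries little by itself, since 68.9% of all probe sets were called, 33.6% higher and 35.2% lower. By size, vri ranked 6th and Pdp1 70th of 6612 genes. Both passed in 13 of 13 settings (3.73 to 5.96 for vri and 2.25 to 3.90 for Pdp1). On the same array the summed signal of the 8 haemocyte markers was 15.79 on the log2 scale, against 16.49 and 16.62 in controls, and that of the 3 neuronal markers with a probe set was 7.77, against 6.57 and 6.76 (2 of these 3 read above the Tag controls on all 6 arrays). Single markers went both ways. On the 100 ng array srp (13.26), eater (13.44) and crq (12.51) read above both of their controls. Hml (10.53), Pxn (10.58), Col4a1 (11.98), NimC1 (11.08) and vkg (14.33) read below both of theirs. Among the neuronal markers elav read 7.53 at 100 ng, against 6.09 and 6.34 in controls. nSyb read 3.87, against 2.98 and 2.78 in controls, and brp read 4.17, below both of its controls. The part of these shifts in the changes of vri and Pdp1 was not tested.

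The scaling of the arrays moved the middle of all probe sets at 100 ng but not the direction of either gene. The median change of all probe sets at 100 ng was 0.04 as deposited, 0.22 after quantile normalization and -0.37 after median centring. Relative to that median, vri was higher by 4.09 as deposited and 4.19 after quantile normalization, and Pdp1 by 2.67 and 2.72; median centring cannot alter these differences. Of the calls at 30 ng, 33.0% were higher as deposited, 51.9% after quantile normalization and 25.6% after median centring. For the calls at 100 ng those shares were 48.8%, 56.2% and 33.9%.

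**Figure D2:**
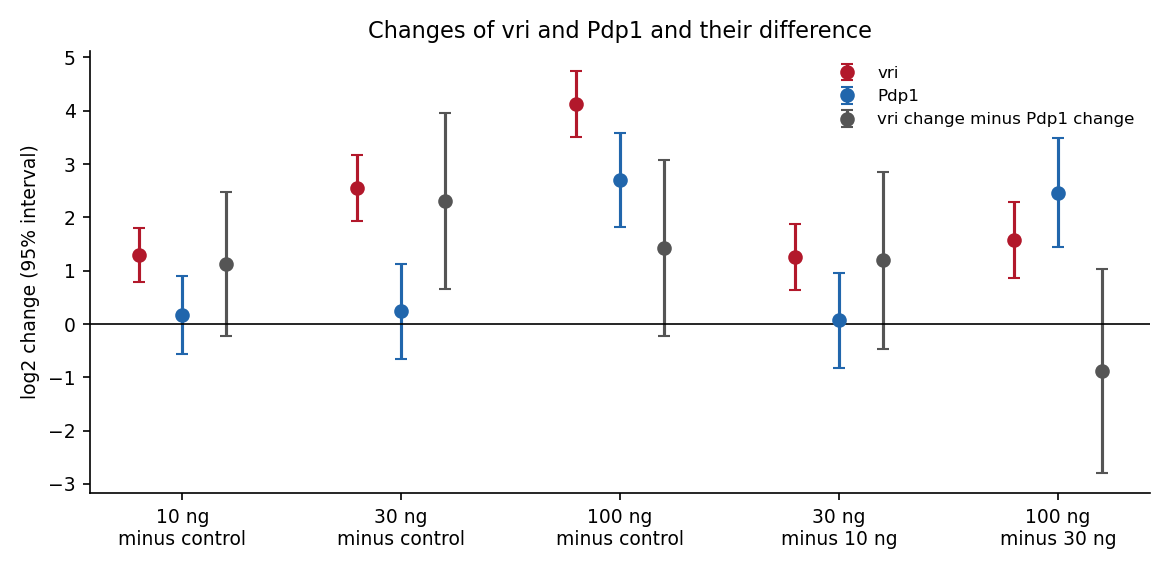
log2 change (points) with 95% intervals of vri, Pdp1 and their difference in 3 contrasts with control and 2 dose steps, from limma fits over all 6 arrays. The interval of vri lies above 0 in all 5 contrasts and that of Pdp1 in the 2 that hold the 100 ng array, and the interval of the difference excludes 0 only at 30 ng (0.66 to 3.97, before adjustment over probe sets).

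The estimates of the steps between doses do not use the control readings, but their SE and p rest on the spread within the control and 10 ng pairs. From 10 to 30 ng vri was higher by 1.26 (SE 0.28, limma adjusted p = 0.0138), where 24.2% of probe sets were called, 13.4% higher and 10.8% lower. This call was lost without 10 ng replicate 2 (1.15, limma adjusted p = 0.0886), with no filter (adjusted p = 0.131) and at face value (adjusted p = 0.0898). Pdp1 differed by 0.07 over the same step (SE 0.40, limma adjusted p = 0.916), and its sign turned without 10 ng replicate 1 (-0.27). From 30 to 100 ng vri was higher by 1.58 (SE 0.32, limma adjusted p = 0.00274) and Pdp1 by 2.46 (SE 0.46, limma adjusted p = 0.00168). This step sets 1 array against 1 array, so its SE and p come wholly from the control and 10 ng arrays and assume that the single arrays vary like them. Over it 53.1% of probe sets were called, 22.4% higher and 30.8% lower. Over that step Pdp1 ranked 17th and vri 194th of 6612 genes, in reverse of their order at 10 and 30 ng. Both arrays of this step had low 5′ control signal (-8.25 at 100 ng and -9.40 at 30 ng), but the middle probe sets of the control transcripts, relative to their 3′ ones, also differed (-6.60 at 100 ng and -2.78 at 30 ng).

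The difference between the changes of the 2 genes was tested on the signal of vri minus that of Pdp1 within each array. Levels of different probe sets are not comparable, so only the shift of this difference between groups has a meaning. Against the mean of the control arrays it was 1.57 and 0.67 on the 10 ng arrays, 2.31 at 30 ng and 1.43 at 100 ng, and the control arrays themselves lay at 0.15 and -0.15. The widest gap was at 30 ng, on a single array.

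In the main fit none of these differences passed after adjustment, although the unadjusted interval at 30 ng excluded 0. Every row of that fit shares the Pdp1 readings. The interval, the p and the adjusted p thus also depend on how other probe sets moved relative to Pdp1. At 10 ng the change of vri exceeded that of Pdp1 by 1.12 (95% interval -0.23 to 2.47, limma adjusted p = 0.977 over all probe sets taken relative to Pdp1, of which 0.0474% were called higher and 0 lower). The exact two-sided permutation test of 2 against 2 arrays gave p = 0.333, the smallest that it can give. At 30 ng the difference was 2.31 (95% interval 0.66 to 3.97, limma adjusted p = 0.222) and at 100 ng 1.43 (95% interval -0.23 to 3.08, limma adjusted p = 0.108). Relative to Pdp1 1.87% of probe sets were called at 30 ng (0.0474% higher and 1.82% lower) and 74.7% at 100 ng (0.0474% higher and 74.7% lower). Without an intensity trend in the moderation the differences at 30 ng (adjusted p = 0.0319) and 100 ng (adjusted p = 0.0476) passed. Over the dose steps vri moved by 1.19 more than Pdp1 from 10 to 30 ng (limma adjusted p = 1.00) and by 0.89 less from 30 to 100 ng (95% interval of the difference -2.80 to 1.02, limma adjusted p = 0.375). Over these steps 1.09% and 63% of probe sets were called relative to Pdp1, all of them lower. Missing the threshold does not show that the genes responded alike, since the intervals at 10 and 100 ng reach 2.47 and 3.08. These fits had infinite prior degrees of freedom, which means that the arrays' own spread in vri minus Pdp1 did not enter. Their intervals reflect the spread of all rows relative to Pdp1 and do not measure that of vri minus Pdp1.

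**Figure D3:**
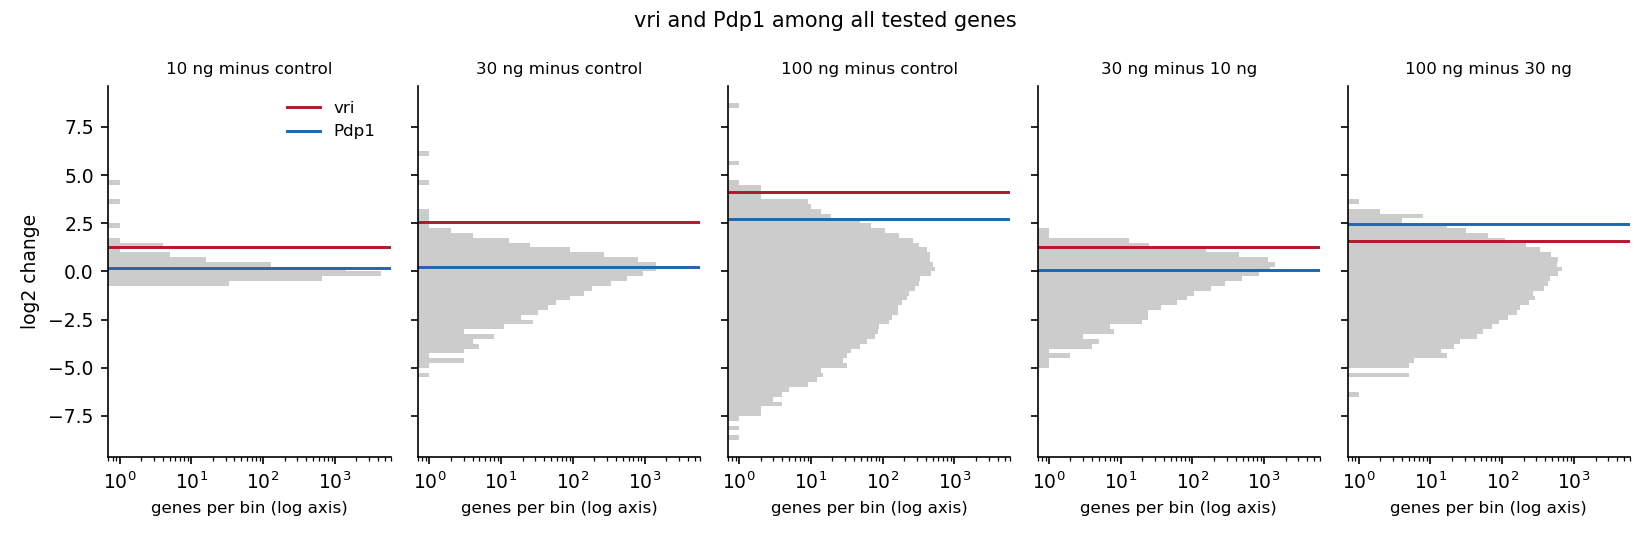
Distribution of log2 changes of all 6612 tested genes in each contrast (grey bars, bins of 0.25, gene number on a log axis) with vri and Pdp1 as lines. vri lies in the upper tail at 10, 30 and 100 ng (7th, 5th and 6th). Pdp1 ranks 281st, 2768th and 70th at these doses, and 17th in the step from 30 to 100 ng.

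With each gene centred on its control mean, the root mean square difference between vri and Pdp1 over the 6 arrays was 1.31. Their Pearson correlation, which does not depend on the size of the changes, was 0.82, with the 100 ng array the highest for both. By root mean square difference, Pdp1 was the 166th nearest to vri of 6611 other genes, and vri the 4032nd nearest to Pdp1. By the same measure the 5 genes nearest to vri were CG10514 (0.38), CG12177 (0.60), loh (0.62), whose product is a secreted ADAMTS-like protein, TfIIA-S-2 (0.63), which encodes a form of the small subunit of the general transcription factor TFIIA, and slgA (0.71), which encodes a proline dehydrogenase. CG10514 had control readings of 3.16 and 3.28, a lower 10 ng reading of 4.78, then 6.22 with 30 ng and 7.84 with 100 ng, above its controls at each dose like vri. slgA had control readings of 3.38 and 3.99, 10 ng readings of 4.21 and 3.88, then 5.21 with 30 ng and 7.34 with 100 ng, so its 10 ng arrays overlapped the controls. CG10514, loh, TfIIA-S-2 and slgA read 3.10 to 3.99 in controls, not far above the highest Tag signal there (2.96 and 2.97). They passed the filter of 4 only through Clk arrays, so a rise over the controls was partly built into their selection. The controls of CG12177 read 6.32 and 6.72.

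The 5 genes nearest to Pdp1 lay closer to it. They were Rbfox1 (0.24), which encodes an RNA-binding splicing regulator, CG6765 (0.25), Ctu1 (0.28), which encodes a tRNA thiolation factor, Acp95EF (0.29) and 14-3-3zeta (0.30). Rbfox1 had control readings of 5.58 and 6.23, 10 ng readings of 5.62 and 5.91, then 6.01 with 30 ng and 8.43 with 100 ng, so that it too was clear of its controls on the 100 ng array alone. After quantile normalization 1 of these 5 genes, Acp95EF, was still among the 5 nearest to Pdp1, and all 5 of those nearest to vri were.

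**Figure D4:**
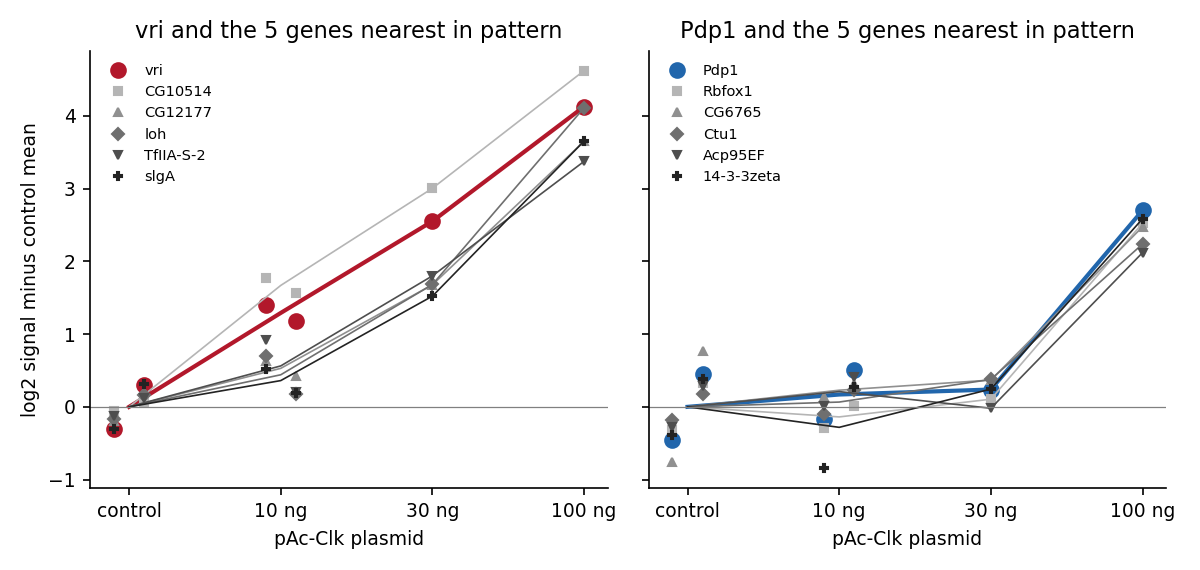
log2 signal minus the gene's own control mean for vri (left) and Pdp1 (right), each with the 5 genes of smallest root mean square difference over the 6 arrays. Points are arrays and lines join group means; the genes near vri are higher at 30 ng and again at 100 ng, and those near Pdp1 are highest at 100 ng.

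The other genes of the core clock were set beside them. Clk, the transfected gene and the target of Vri and Pdp1, had control readings of 2.50 and 2.84, under the highest Tag signal, 10 ng readings of 3.46 and 3.47, then 5.07 with 30 ng and 4.66 with 100 ng. Set against the controls' mean highest Tag signal, Clk was at least 1.41-fold higher with 10 ng, at least 4.29-fold with 30 ng and at least 3.23-fold with 100 ng. The test used the control readings themselves, with changes of 0.80, 2.40 and 1.99 (limma adjusted p = 1.00, 0.000153 and 5.84e-05), and not these bounds. Between the single arrays, Clk at 100 ng differed from 30 ng by -0.41 (95% interval -1.04 to 0.22, limma adjusted p = 0.253), where vri and Pdp1 were higher by 1.58 and 2.46. Clk reached the filter value of 4 on the 30 and 100 ng arrays alone, so its calls there rest on the arrays that let it into the test. Whether this probe set reads plasmid RNA, the cell's own Clk RNA or both is not given in the files. tim, whose product pairs with Per to repress Clk-Cyc, rose by 4.72, 6.20 and 8.71 over control with 10, 30 and 100 ng, beside 1.29, 2.55 and 4.13 for vri and 0.17, 0.24 and 2.70 for Pdp1. These comparisons share the control arrays. The values of tim are those of its brighter probe set. Its dimmer one read 2.13 and 2.53 in controls, both under the highest Tag signal, and 6.03 and 6.78 with 10 ng. With 30 ng it read 6.85 and with 100 ng 8.03. The call of tim at 10 ng (limma adjusted p = 5.28e-05) was lost without 10 ng replicate 1 (adjusted p = 0.0773), at face value (0.277) and with no filter (0.604).

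Of the 5 other core clock genes tested, tim alone was called higher with 10 ng. With 30 ng and again with 100 ng tim and Clk were called higher and cyc was called lower. Clk and tim (the latter with control readings of 3.27 and 4.03) passed the signal filter only with Clk arrays, so their calls were not independent of it. Over all 6612 genes the shares called higher were 0.0605% with 10 ng, 6.22% with 30 ng and 34.9% with 100 ng, and those called lower 0%, 10.4% and 35.4%. cyc, which encodes the partner of Clk, had 10 ng readings of 7.87 and 7.68, then 7.16 with 30 ng and 5.80 with 100 ng, all below its higher control reading of 8.03, and fell by 2.22 with 100 ng (limma adjusted p = 3.11e-05). Its fall at 30 ng (-0.85, limma adjusted p = 0.0431) was lost when any of the 4 replicate arrays was left out (adjusted p 0.0571 to 0.115). The changes of per were 0.28, -0.03 and 0.81 over the same doses (limma adjusted p = 0.0881 for the highest), and that of cwo, a bHLH repressor of the same targets, was -0.05, -0.73 and 0.53. Neither passed, although per passed at 100 ng in 6 of 12 settings (its change was 0.41 to 1.17 over all 12). cwo passed in 2 of 13 settings at 30 ng (lower) and in 2 of 13 at 100 ng (higher). These were the filter at 6 and the fits without control replicate 1 (-0.92 at 30 ng) or control replicate 2 (0.72 at 100 ng). All had infinite prior degrees of freedom, so the spread of cwo itself (10 ng readings of 8.54 and 10.49) did not count. So had some of the settings in which per passed. cry, the gene of the blue-light photoreceptor of clock cells, read 2.35 to 2.69 and was under the Tag controls on all 6 arrays. Median changes of the 5 genes were 0.28, -0.03 and 0.81 by dose, against -0.09, 0.15 and 0.05 for all 6612 genes.

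**Figure D5:**
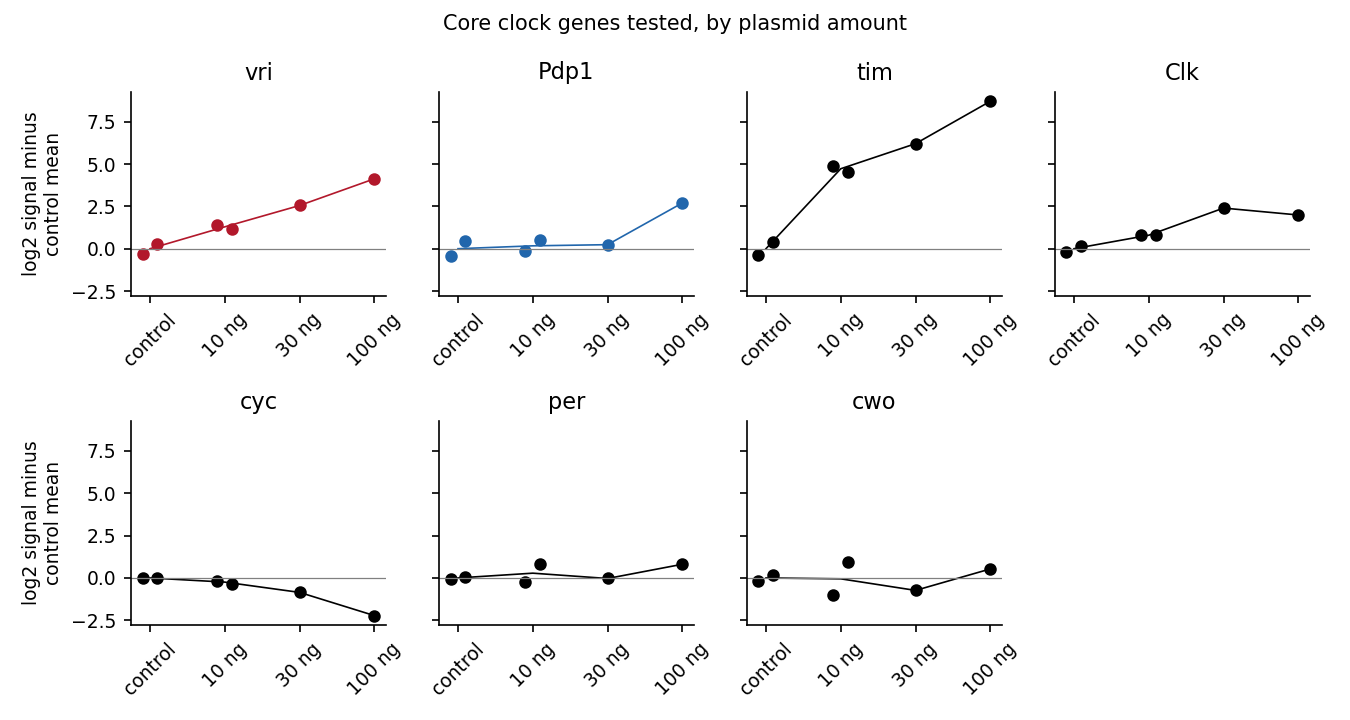
log2 signal minus control mean for the 7 core clock genes that passed the signal filter. Points are arrays and lines join group means; tim and vri are higher at each dose, Pdp1 at 100 ng (2.70), Clk is highest at 30 ng (its control readings lie at background) and cyc is lowest at 100 ng (-2.22).

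The wider bZIP family was described beside vri and Pdp1. Of 19 further bZIP genes listed, 16 had a probe set with a single symbol and 11 were tested. At 10 ng 0 of the 11 passed in either direction (limma), with changes of -0.30 to 0.06 and a median of -0.14. With 30 ng REPTOR was called higher (0.85) and Jra and CrebB lower (list median 0.34; 0 to 5 higher and 1 to 2 lower over the settings). With 100 ng the calls were 7 upward and 4 downward (list median 0.98), against medians of 0.15 and 0.05 for all genes. The shares of all genes called are those given for the clock genes. The largest change upward among the 11 at 100 ng was 1.76, below 2.70 for Pdp1 and 4.13 for vri.

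The 6 further bZIP genes with the smallest p at 100 ng moved both ways. Jra, the fly Jun, read 5.94 at 100 ng, against 10.57 and 10.53 in controls (change -4.61, limma adjusted p = 5.48e-08). Its dimer partner kay, the fly Fos, read 13.47 at 100 ng, against 12.51 and 12.48 in controls (change 0.98, limma adjusted p = 0.000265) by its brighter probe set, whereas its dimmer one read below both of its control values (4.92 and 5.32). CrebB, a cAMP-response factor, read 2.89 at 30 ng and 2.48 at 100 ng by its brighter probe set, both under the Tag controls, against 7.28 and 7.81 in controls (limma adjusted p = 3.67e-05 at 30 ng and 1.74e-06 at 100 ng). Its other probe set read 3.46 at 30 ng, above the Tag controls of that array (3.18), and 2.88 at 100 ng, under them (3.56), against 6.56 and 7.24 in controls. crc, the fly ATF4, fell by 1.24 at 100 ng (limma adjusted p = 0.000131), while Atf6, a factor of the endoplasmic reticulum stress response, rose by 1.38 (0.000159) and cnc, an Nrf-type factor of the oxidative stress response, by 1.76 (0.000290). At 10 ng these 6 genes differed from control by -0.30 (cnc) to -0.06 (Jra), with the signs of Jra and Atf6 turned after quantile normalization. After quantile normalization 7 of the 11 were called higher and 3 lower at 100 ng, and after median centring 6 and 4.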

How the data were processed

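Total RNA of 6 S2 cell samples was measured on Affymetrix arrays. Extraction used TRIzol and the label was biotin, per the labels' protocols; GCRMA is named, with neither version nor settings, per the submitters' processing notes. Each array has 1 deposited column of linear intensities; 0 columns were left unassigned. Their natural log (1.69 to 15.85) was read as log2 signal, because at face value their log2 reaches 22.86, beyond a 16-bit scanner for 8701 of 113712 values. Probe sets with 4 or more on at least 2 arrays were tested (8446 of 18952), leaving out 183 control probe sets. Of the rest 13647 carried 1 symbol, 402 several and 4720 none; 13544 symbols were matched by Entrez ID to RefSeq. The brightest probe set stood for each gene (6612 genes).

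Changes were tested with limma 3.58.1 in R 4.3.3, with 1 coefficient per group, eBayes with an intensity trend and Benjamini-Hochberg adjustment over all probe sets, calling an adjusted p under 0.05. There were 2 residual and 7.60 prior degrees of freedom. For the difference between genes, Pdp1 was subtracted from every probe set on each array before the same fit; its dose steps were added after seeing the data. Scripts were tested on simulated data. Figures used matplotlib 3.10.9 in Python 3.11.15. Members, lists and tests were chosen with earlier results of these data known. Named genes were the core clock, up to 6 further bZIP genes called at any dose with the smallest p at 100 ng, and the 5 genes nearest to vri and to Pdp1. The number of arrays limits the precision, and p-values measure only the spread between arrays, which may be technical. Replicates were not copies, with 5 of 18952 values identical between the controls and 6 between the 10 ng arrays.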

Additional observations from a re-analysis of the deposited data

How the results depend on the processing

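Over 12 alternatives (16 at 10 ng) the rises of vri at 30 and 100 ng and from 30 to 100 ng, and those of Pdp1 at 100 ng and from 30 to 100 ng, kept their direction and their call. The change of vri at 10 ng (1.29) passed with median centring (1.29), the filter at 6 (1.29), robust moderation (1.29) and the replicate block (1.29, limma adjusted p = 0.00108), and was 0.99 to 1.59 with a replicate left out. The filter at 6, robust moderation and the replicate block had infinite prior degrees of freedom. From 10 to 30 ng vri (1.26) missed the threshold at face value (1.82) and with no filter (1.26), and was 1.15 to 1.37 with a replicate left out. With a replicate left out Pdp1 was -0.28 to 0.62 at 10 ng, -0.21 to 0.69 at 30 ng and -0.27 to 0.40 from 10 to 30 ng. The difference between vri and Pdp1 passed without an intensity trend at 30 ng (2.31) and 100 ng (1.43), and at 10 ng with the replicate block (1.12, adjusted p = 0.00816). The cause of these shifts was not tested.

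Among other genes at 10 ng, quantile normalization turned the sign of cwo (0.048), Jra (0.037) and Atf6 (0.023), and at 30 ng that of per (0.050). With a replicate left out cwo was -1.03 to 0.92, Jra -0.20 to 0.079, CrebB -0.56 to 0.27 and per -0.26 to 0.82 at 10 ng, and cnc -0.075 to 0.33 and per -0.083 to 0.019 at 30 ng.

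Control and 10 ng arrays share replicate numbers, but the labels do not say that these pair the samples. The differences between replicates 1 and 2 correlated at 0.33 across probe sets between the groups, and the block raised the calls from 8 to 23, Clk among the genes it called (0.80, adjusted p = 0.00343). Calls at 10 ng numbered 0 at face value (363 at an unadjusted p under 0.05) and with no filter (549), 15 with robust moderation and 3 to 25 with a replicate left out. At 30 ng the 1465 calls became 671 at face value, 687 with no filter, 2233 after quantile normalization and 2328 with robust moderation. At 100 ng 5816 became 10403 with no filter. From 10 to 30 ng 2046 became 669 at face value, 655 with no filter and 761 without 10 ng replicate 2, and from 30 to 100 ng 4488 became 7379 with no filter. Of the calls from 30 to 100 ng 42.1% were higher, 52.9% after quantile normalization and 20.1% after median centring; from 10 to 30 ng these were 55.2%, 54.9% and 44.5%. Each gene had 1 probe set, so no other could replace it.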
